A study of Mus musculus with 8 samples.

Results

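The circadian clock genes examined here are Per1, Per2, Per3, Cry1, Cry2, Clock, Arntl, Nr1d1, Nr1d2 and Dbp, and their members are the YTHDF3 peaks that carry one of these 10 gene names. YTHDF3 is a reader protein that binds RNA carrying N6-methyladenosine (m6A). The names gave 57 deposited peaks, of which 56 passed the thresholds of the study (IP at least 2 times the input, with p below 0.0001). Merging peaks that overlapped by at least 1 bp placed them in 21 of 39979 regions, and 5 of the 21 were called in all 4 peak lists, against 6531 of the 39979. All 5 lie in Per1.

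RNA bound to YTHDF3 was immunoprecipitated (IP) with an antibody to the endogenous protein from wild-type C57BL/6 mouse embryonic fibroblasts (MEFs), primary cells from embryos of 13.5 days post coitum used after 5 to 6 passages. The cells were kept in normal medium (called normal) or in nutrient-deprived medium for 2 h (called starved), with 2 replicates per condition, and each of the 4 IP libraries was compared with an input library of the RNA before IP. Nothing in the labels says whether the replicates came from separate embryos, so the p-values measure the spread between these libraries, which may be technical. Only reads within called peaks are listed: the kept peaks of a list held between 8818619 (normal replicate 1) and 19271667 (starved replicate 2) IP reads, and the depth of the libraries is not known. A gene without a peak in a list was therefore not enriched enough to be called there, and its level in that library is not known. Of 9 fibroblast markers, 4 had a region in their exons (Col1a2, Col3a1, Pdgfra and Pdgfrb, with 9283 to 19370 input reads per library), as did 1 of 4 blood markers (Csf1r, 184 to 389 input reads) and 1 of 3 endothelial markers (Kdr, at most 5 input reads), while 0 of 4 epithelial, 0 of 3 muscle and 0 of 2 neuronal markers had one.

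The mammalian clock is a feedback loop of transcription. CLOCK and BMAL1, the product of Arntl, activate the Per and Cry genes from E-box elements, and PER and CRY proteins return to the nucleus and repress that activation. In a second loop REV-ERBα and REV-ERBβ, encoded by Nr1d1 and Nr1d2, repress Arntl, and DBP activates genes with D-box elements. Per1 is also an immediate early gene that serum and signalling can induce in fibroblasts, and blocking RNA methylation is known to lengthen the clock period.

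The Per1 regions were described first by their sequence, because GGAC is the core of the motif in which m6A is written. The Per1 transcript (RefSeq NM_011065, chr11:69098948-69109960 on the plus strand of mm10, 23 exons, 4671 nt) holds 29 GGAC, or 6.21 per kb, and 28 of them lie in the 5 regions called in all 4 lists. These regions span 4610 of its 4671 nt, so that nearly every GGAC had to fall inside. Of the GGAC in exons, the one nearest to the centre of each region is shown with 12 bases on either side, 5′ to 3′, with GGAC in capitals. The stretches come from the GRCm38 (mm10) reference genome and none crosses an exon junction. No m6A was measured in these lists, and a GGAC is not shown to be a binding site.
Per1 exon 10, coding, chr11:69102885-69102912: tctacatcctgaGGACcgacccctcatg
Per1 exon 18, coding, chr11:69105575-69105602: ggcaggcttcgtGGACttgacacctctt
Per1 exon 19, coding, chr11:69106665-69106692: tcccctcgaggaGGACcccagccccttc
Per1 exon 21, coding, chr11:69107970-69107997: gtgtgtgctccaGGACcccatctggctg
Per1 exon 23, 3′ UTR, chr11:69109432-69109459: caagatacagctGGACcaaccaatagga
Per3 exon 1, 5′ UTR, chr4:151044287-151044314, minus strand: aggcgatggcagGGACcaaaacaagccg

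The first 5 stretches were picked as 1 per region. Their spread over the coding sequence and 3′ UTR of Per1 follows from that choice. A region joins the peaks of all lists, and a stretch in it need not lie under a peak of each list. The exon 18 stretch lay under a peak in all 4 lists. That of exon 10 lay outside the peaks of normal replicate 1 and starved replicate 1. Those of exons 19 and 23 lay outside the peaks of normal replicate 2, and that of exon 21 outside those of starved replicate 1. The Per1 regions held 15, 1, 2, 4 and 6 GGAC in their exons from 5′ to 3′. The last stretch shown belongs to the first exon of Per3, whose region held 7 GGAC in the exon. This stretch lay outside the peak of normal replicate 2 and under those of both starved replicates. Genomic windows of 200 bp at the centre of a region, which include introns, were searched for GGAC on the strand of the gene. Either strand counted where the lists gave no gene of the annotation or genes of both strands. GGAC occurred in 5 of 5 Per1 windows, against 61.9% of the windows of all 6531 regions. An exonic GGAC lay in 4 of the 5, and the window of exons 2 to 17 held an intronic GGAC alone. With windows of 100 bp it occurred in 2 of 5, against 39.3%, and over all 21 regions of the clock genes 11 windows of 200 bp held it (52.4%, exact binomial 95% interval 29.8 to 74.3%), against 56.5% of all regions. Transcripts of the other clock genes with a region in their exons held from 2.14 GGAC per kb (Clock) to 6.53 per kb (Dbp).

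Per1, whose protein is a core repressor of CLOCK and BMAL1, carried most of the signal. Peaks with its name numbered 10 and 7 in normal replicates 1 and 2, and 7 and 9 in starved replicates 1 and 2. The peaks covered 93.0% and 57.9% of the transcript in the normal and 52.5% and 94.8% in the starved libraries. Coverage thus differed more between replicates than between conditions. The IP/input folds of its 33 peaks lay between 2.11 and 4.71, and the lists begin at 2. The median fold of the 5 regions was 2.92 and 2.42 in the normal and 2.26 and 2.44 in the starved libraries, beside medians of 2.97, 2.96, 2.82 and 3.16 over all 6531 regions.

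**Figure D1:**
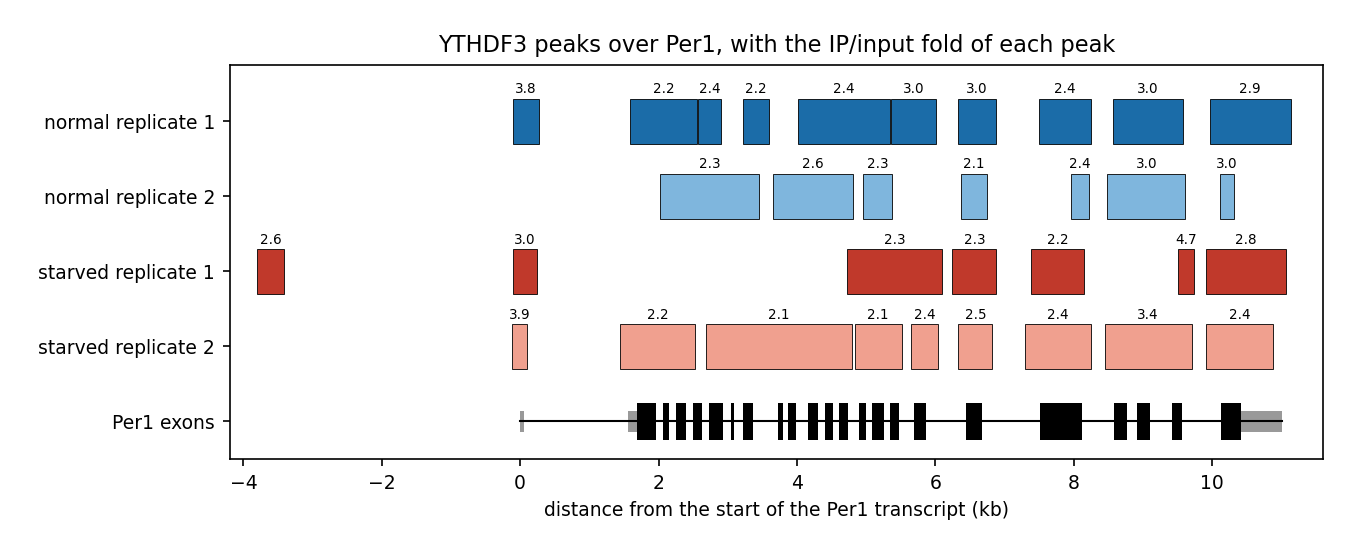
Kept YTHDF3 peaks over Per1 in the 4 lists, by distance from the start of the transcript (kb), with the IP/input fold above each peak and the exons below (black, coding; grey, UTR). Every list has peaks over the middle exons and the last exon, while starved replicate 1 has none over exons 2 to 12 and only a short one over the end of exon 22.

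The largest region, chr11:69100391-69105040, spans exons 2 to 17, which encode the 5′ part of the coding sequence. It held 1479 and 1126 IP reads in the normal and 1153 and 2868 in the starved libraries, over 500 and 466 input reads and 219 and 886 input reads. The bases under peaks numbered 3650 and 3000 in the normal and 1370 and 4270 in the starved libraries. Those of starved replicate 1 lay over exons 13 to 17 alone, so that its densities come from a different part of the region. Per kb of peak and scaled between libraries by TMM (the trimmed mean of M-values of edgeR, from reads in the 6531 regions), this came to 535 and 428 IP reads in the normal and 666 and 563 in the starved libraries, and the 2 conditions did not overlap. The input was 153 and 123 reads per kb in the normal and 195 and 192 in the starved libraries, also without overlap. The IP/input fold was 2.39 and 2.42 in the normal and 2.26 and 2.16 in the starved libraries.

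Exon 18 is covered by the region chr11:69105191-69105830, and its 234 bp lay whole under the peak of each list. It held 202 and 147 IP reads in the normal and 479 and 298 in the starved libraries, with 55 and 69 input reads and 91 and 79 input reads. Both starved IP densities, 593 and 510.1 reads per kb, lay above both normal ones, 485 and 430. The fold, 2.96 and 2.13 in the normal and 2.26 and 2.51 in the starved libraries, overlapped between conditions.

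The region of exon 19, chr11:69106241-69107190, lies over the longest internal coding exon. It held 309 and 65 IP reads in the normal and 876 and 669 in the starved libraries, and 103, 27, 169 and 183 input reads in the same order. Its peaks covered 750 and 250 bp in the normal and 770 and 950 bp in the starved libraries, with 159 of the 617 bp of the exon under the peak of normal replicate 2 and all of them in the other lists. Per kb, the IP reads were 544 and 297 in the normal against 901 and 591 in the starved libraries, and the input reads 154 and 85.6 against 267 and 178. Both measures were thus higher in each starved library than in either normal one, while the fold stayed between 2.22 and 2.44 in all 4.

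The region of exons 20 to 22, chr11:69107391-69108690, was the exception. It held 280 and 311 IP reads in normal MEFs, 44 in starved replicate 1 and 534 in starved replicate 2, over 75, 103, 4 and 106 input reads. The 44 reads come from 1 peak of 240 bp that holds 61 bp of exon 22 and is otherwise intronic, and exons 20 and 21 had no peak in that library. Densities were 366 and 314 IP reads per kb in the normal against 145 and 356 in the starved libraries. The fold of 4.71 in starved replicate 1 rests on those 4 input reads, and the other folds were 3.01, 3.02 and 3.36.

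The last region, chr11:69108851-69110080, covers exon 23 with the stop codon and the 3′ UTR, the part of a transcript where m6A is usually densest. It held 387 and 45 IP reads in the normal and 1186 and 554 in the starved libraries, with 107 and 15 input reads and 184 and 153 input reads. Per kb, the IP reads were 437 and 257 in the normal and 809 and 484 in the starved libraries. The input reads were 102 and 59.4 in the normal and 193 and 147 in the starved libraries. Neither measure overlapped between conditions, but the peaks of normal replicate 2 covered 200 bp, all before the 3′ UTR, against 960 to 1170 bp in the other lists. The fold was 2.92 and 3.0 in the normal and 2.76 and 2.41 in the starved libraries.

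**Figure D2:**
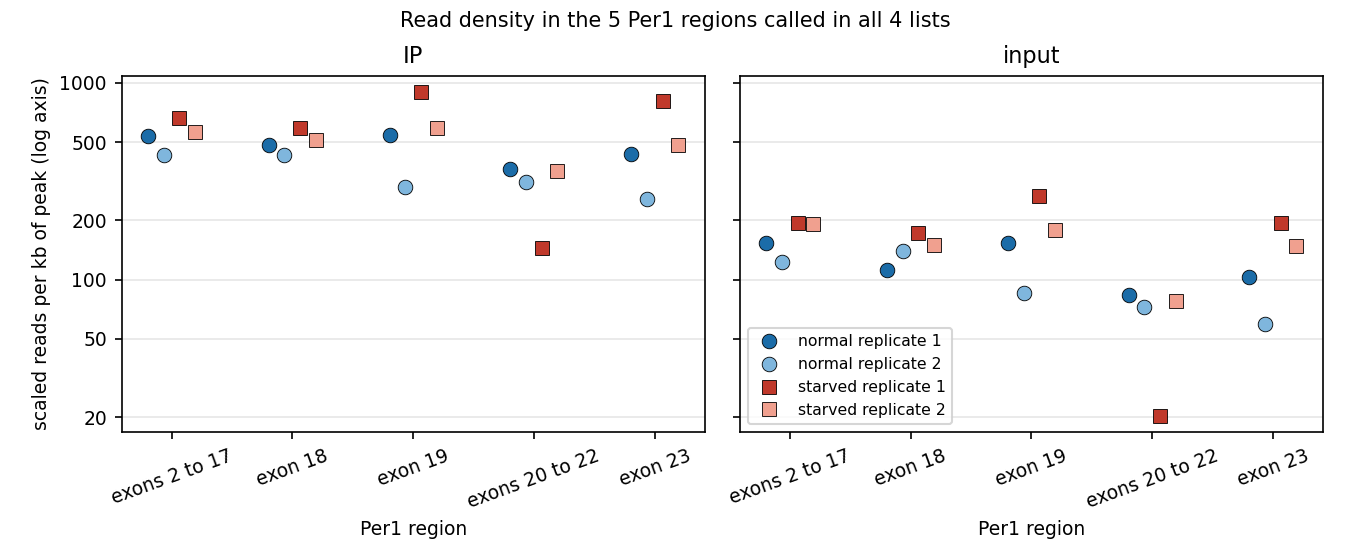
IP reads (left) and input reads (right) per kb of peak, scaled between libraries by TMM, in the 5 Per1 regions called in all 4 lists (log axis); circles are normal and squares starved libraries. In every region but exons 20 to 22 both starved libraries lie above both normal ones, for IP and for input alike.

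IP density was higher in both starved libraries than in both normal ones in 4 of the 5 Per1 regions, as it was in 20.1% of all 6531 regions. Input density was higher in the same way in 4 of 5, against 18.5% of all regions. In a bulk input, the number of cells with a transcript and the amount of transcript per cell cannot be told apart. The IP/input fold was higher without overlap in 1 of 5 regions (15.2% of all) and lower in 2 of 5 (13.3% of all). The 5 regions share 1 transcript and are not independent, and the bases under their peaks differ between lists. Summed over all Per1 peaks but the one upstream of the gene, the fold was 2.57 and 2.49 in the normal and 2.41 and 2.34 in the starved libraries, and its log2 change was -0.09 in each replicate.

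No Per1 region passed a test in the fit across all regions (edgeR quasi-likelihood test, Benjamini-Hochberg adjusted over 6531 regions). The log2 change of the IP/input ratio from normal to starved was -0.16 ± 0.20 (SE, n = 2 per condition) for exons 2 to 17, -0.10 ± 0.28 for exon 18, -0.09 ± 0.26 for exon 19, 0.10 ± 0.30 for exons 20 to 22 and -0.22 ± 0.27 for exon 23. The adjusted p from edgeR was 0.999 for each. Of all regions, 0.0153% were called for the ratio, 1 in number, while 0 of the 5 had an unadjusted p under 0.05 (2.8% of all) and DESeq2 called 0 (0.0153% of all). Intervals built from the SE reached from -0.75 at the lowest to 0.69 at the highest, and changes of the ratio within them are not excluded. These intervals are approximate and can be narrower than 95% intervals. For the input reads of exon 19, such an interval lay above 0 (0.11 to 1.6) at an edgeR unadjusted p of 0.0504. That for the input reads of exons 2 to 17 did so too (0.0031 to 0.96), at an edgeR unadjusted p of 0.0794. These intervals are also not limits of detection after adjustment over 6531 regions. Without starved replicate 2 the estimate of the ratio change for exons 20 to 22 was itself 0.71. The study used a 1.8-fold cutoff for YTHDF3 peaks in starved against normal MEFs. Here it was applied to another measure, the IP/input fold of a region, and required in both replicates. By this rule 0 of 5 were higher and 0 of 5 were lower, against 0.23% and 0.322% of all regions. The lists begin at a fold of 2, and the highest normal folds of the 5 regions were 3.01 and 3.02. A 1.8-fold drop would thus not have been listed, and the 0 of 5 lower was fixed in advance. With 2 libraries against 2, an exact two-sided permutation test cannot go below p = 0.33, and none was run.

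The log2 difference of IP reads per base, starved against normal, was 0.35 ± 0.22 for exons 2 to 17, 0.27 ± 0.23 for exon 18, 0.80 ± 0.33 for exon 19, -0.37 ± 0.37 for exons 20 to 22 and 0.85 ± 0.34 for exon 23. None of these passed (edgeR adjusted p from 0.419 to 0.828), with 1.12% of all regions called. The unadjusted p was under 0.05 in 2 of the 5, those of exons 19 and 23, against 10.4% of all regions, and DESeq2 called 0 of 5, against 2.76%. With the replicate number as a block both were called higher (edgeR adjusted p = 0.0093 for exon 19 and 0.0059 for exon 23), where the block called 4.92% of all regions higher. Without normal replicate 1, exon 19 alone was called (log2 change 1.31, edgeR adjusted p = 0.0328; 1.16% of all regions called higher), and exon 23 stood at 1.32 (edgeR adjusted p = 0.051). The estimates were smaller without normal replicate 2 (0.44 for exon 19 and 0.55 for exon 23) and without starved replicate 1 (0.46 and 0.43). Without starved replicate 1, the difference for exons 20 to 22 was 0.07, and with no offset for the covered length that for exons 2 to 17 was -0.11.

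For input reads per base the log2 difference was 0.48 ± 0.25 for exons 2 to 17, 0.35 ± 0.36 for exon 18, 0.86 ± 0.38 for exon 19, -0.44 ± 0.50 for exons 20 to 22 and 1.00 ± 0.36 for exon 23. None passed (edgeR adjusted p from 0.432 to 0.905), with 0.98% of all regions called, 1 of 5 had an unadjusted p under 0.05, against 8.24% of all, and DESeq2 called 0 of 5, against 1.91%. Leaving out 1 library at a time, the input difference lay between 0.50 and 1.39 for exon 19 and between 0.71 and 1.53 for exon 23, the highest without normal replicate 1. The input estimates had the same sign as the IP estimates in each region and were of similar size. With no offset for the covered length, the input difference was 0.10, 0.55, 1.31, -0.78 and 1.32 in the regions from 5′ to 3′. The IP difference was then -0.11, 0.42, 1.23, -0.73 and 1.17, with an SE of up to 1.15 over both measures. How much of either difference comes from the differing peak lengths was not tested.

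**Figure D3:**
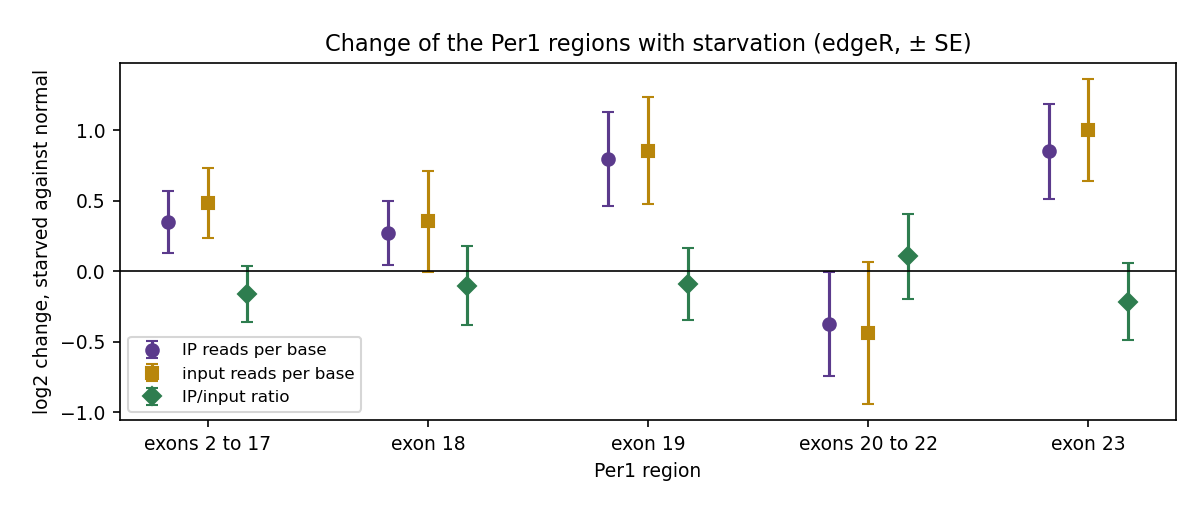
Log2 change from normal to starved of IP reads per base, input reads per base and their ratio in the 5 Per1 regions (edgeR estimate ± SE, n = 2 per condition). IP and input estimates share their sign in each region, up to 0.85 and 1.00 in exon 23, and those of the ratio lie between -0.22 and 0.10.

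Upstream of these, the first exon of Per1 lay in a region called in 3 lists, chr11:69098831-69099220, of which 61 bp are 5′ UTR of exon 1 and the rest lies outside the exons of this transcript. It held 61 IP reads in normal replicate 1 and 98 and 41 in starved MEFs, with 13, 14 and 7 input reads, and no peak in normal replicate 2. A further peak, chr11:69095151-69095540, was called in starved replicate 1 alone, with 84 IP and 14 input reads. It overlaps an exon of another annotated Per1 transcript.

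Per3, a PERIOD paralog that is less central to the core loop than Per1 and Per2, had small peaks with almost no input. The region of its first exon, chr4:151044061-151044700 on the minus strand, holds 433 bp of 5′ UTR and 125 bp of coding sequence. It had 26 IP reads over 2 input reads in normal replicate 2, 79 over 0 in starved replicate 1 and 58 over 7 in starved replicate 2, and no peak in normal replicate 1. With the input set to 3 reads where it was lower, the IP/input fold was 8.67 in normal replicate 2 and 11.3 in starved replicate 1, and it was 5.52 in starved replicate 2. Without that setting, the exact 95% intervals of the scaled IP/input ratio, which cover counting error only, began at 3.25, 8.97 and 2.52 in the same order. Exons 2 and 3 had 2 further regions with at most 22 IP reads over 0 input reads.

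The deposited name is that of the nearest promoter, and 6 more regions in exons 16 to 21 of Per3, at the 3′ end of the gene, carried the name Uts2. Of the 9 Per3 regions by exon, the 6 at the 3′ end held 15 to 28 IP reads over at most 3 input reads in the libraries that called them. They included 4 with coding sequence (exons 16, 17 and 20) and 2 in the 3′ UTR. None was called in normal replicate 1, which had no Per3 peak of either name and, over all genes, the fewest IP reads in kept peaks.

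For Nr1d1, most of the peaks with its name were not in its exons. The gene encodes REV-ERBα, a heme-binding repressor of Arntl, and lies tail to tail with Thra, the thyroid hormone receptor α gene, whose 3′ end overlaps it on the opposite strand. Of 6 regions named Nr1d1, 5 lay outside its exons, 2 of them in exons of Thra and the others in no annotated exon, and the lists carry no strand. The region chr11:98760751-98761070, in a Thra exon, held 30 IP and 5 input reads in normal replicate 1 and 117 and 22 in starved replicate 1. The 1 region in Nr1d1 exons 3 to 4, chr11:98771271-98771490, was called in normal replicate 1 alone, with 51 IP and 12 input reads. The 1 clock gene peak that missed the thresholds was also named Nr1d1, with 61 IP and 26 input reads in normal replicate 2 and a p of 0.000141.

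Nr1d2, which encodes REV-ERBβ, the partner of REV-ERBα, had 4 regions, all in its own exons. Its first exon, chr14:18238681-18239210 on the minus strand, holds 301 bp of 5′ UTR and 16 bp of coding sequence. It was called in both starved lists and in neither normal list, with 350 and 404 IP reads over 71 and 99 input reads, and folds of 2.11 and 2.72. The folds lie just above the threshold of 2, and reads at these bases in normal MEFs are not in the lists, so that no change can be given. Kept peaks of all genes numbered 17364 and 21943 in the normal and 23088 and 24701 in the starved lists. The share of all regions called in the starved lists alone was not counted here. Exon 2 (chr14:18221871-18222460) held 69 and 82 IP reads in normal MEFs and 382 in starved replicate 2, over 19, 36 and 111 input reads, with folds of 2.93, 2.28 and 2.29. The covered bases were 300 and 270 in normal MEFs and 590 in starved replicate 2. Exon 3 was called in normal replicate 1 (15 IP and 0 input reads) and starved replicate 2 (72 and 11), and exon 7 in starved replicate 1 (97 and 17). GGAC occurred in the exonic part of the exon 7 region, and those of exons 1, 2 and 3 held none of these 4 letters.

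Dbp, a PAR bZIP activator of D-box genes and a direct target of CLOCK and BMAL1, had 1 peak of its name, chr7:45707131-45707330. It was called in starved replicate 1 alone, with 33 IP over 2 input reads, and lies in intron 2 of the main transcript and in an exon of another. The last 93 bp of the Dbp 3′ UTR fell in a region named Sphk2, chr7:45710111-45712810, called in 3 lists with 1122, 2995 and 1988 IP reads. Most of that region is Sphk2 sequence of the opposite strand, encoding sphingosine kinase 2, and the reads of the overlap cannot be assigned.

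No peak carried the names of Per2, Cry1, Cry2, Clock or Arntl, which include both activators of the loop and both cryptochromes. By exon overlap, regions with another gene's name fell in 3 of these 5 genes. Per2 had 2 regions in exon 23, named Hes6 and called in normal replicate 2 alone, with 28 and 14 IP reads over 0 input reads. Cry2 had 3 regions, each in 1 list, with 25 to 61 IP reads over 3 to 15 input reads. Clock had 1 in its 3′ UTR, named Tmem165, with 41 IP and 3 input reads in starved replicate 1. Cry1 and Arntl had no region by name or by exon. Counted by exon, the clock genes had 29 regions of 8 genes, and the same number, 5, was called in all 4 lists.

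**Figure D4:**
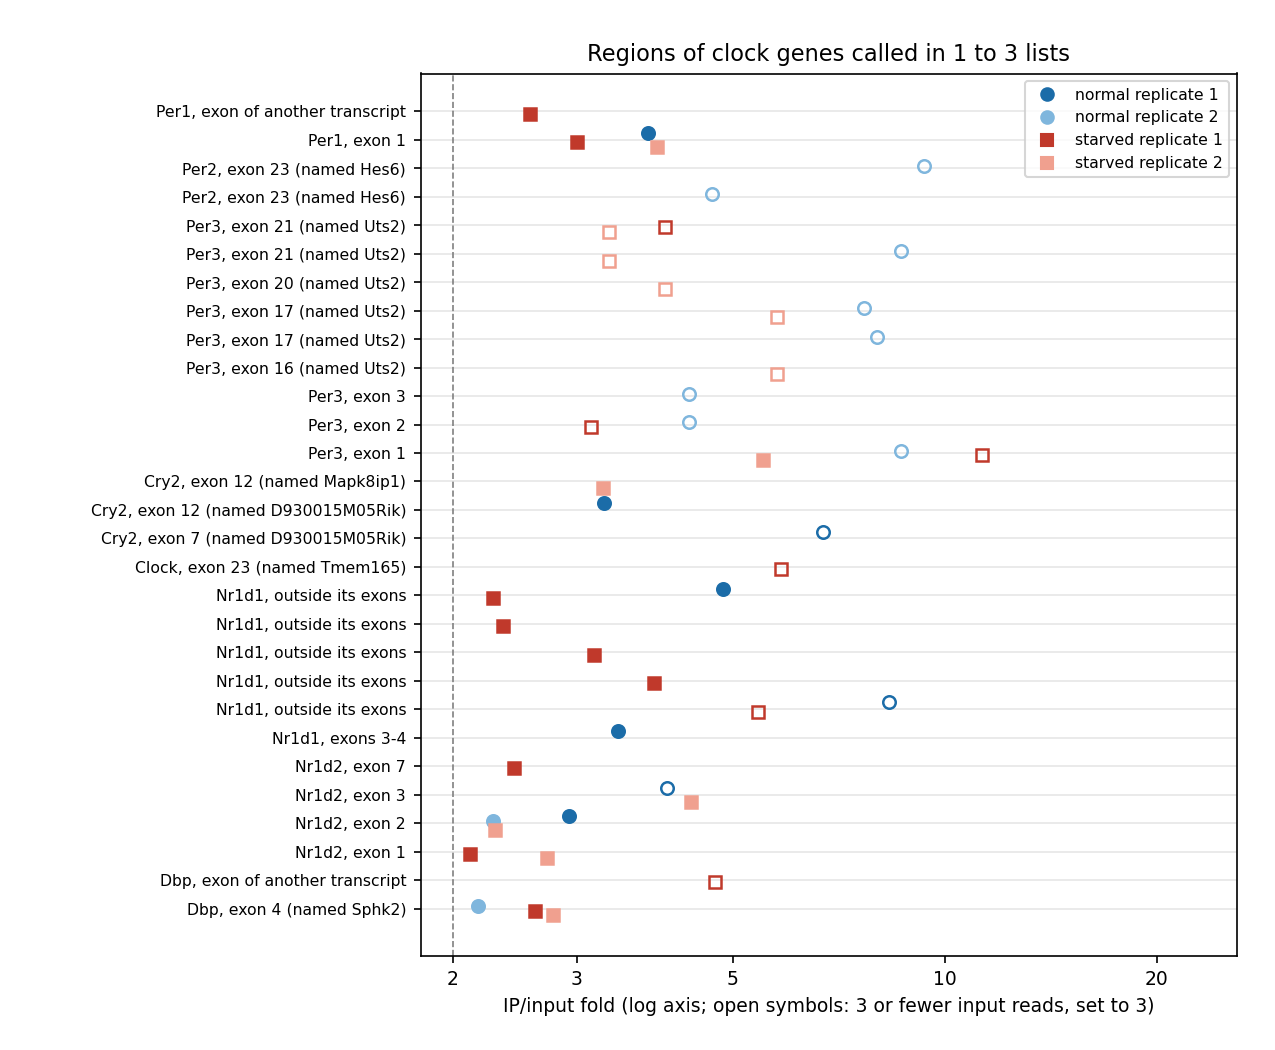
IP/input fold (log axis) of the 29 clock gene regions called in 1 to 3 lists, 16 by deposited name and 13 by exon alone, with 1 symbol per list that called the region; open symbols have 3 or fewer input reads, set to 3. Most regions have 1 or 2 symbols, and the Per3 and Per2 symbols are nearly all open. The symbol closest to the threshold of 2 (dashed line) is that of Nr1d2 exon 1 in starved replicate 1, at 2.11.

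Other genes of the clock were described for comparison. Of 16 such genes, 11 had a kept peak, with 136 peaks in 59 regions, and 13 regions of 4 genes were called in all 4 lists: 7 of Fbxw11, an F-box protein of the ligase that marks PER proteins for degradation, 3 of Nfil3, a repressor at D-box elements, 2 of Tef, a D-box activator related to DBP, and 1 of Arntl2, a paralog of Arntl. The Arntl2 region lay in an exon of Stk38l and 1 Nfil3 region in an exon of Ror2. Counted by exon instead, 17 regions were called in all 4 lists, 13 of them in Fbxw11. These included the Fbxw11 region with the most reads, chr11:32744291-32746750, with 5089 to 7951 IP reads per library. Of the 17, edgeR called 0 for the ratio, the IP reads or the input reads. Npas2, Rorb, Ciart, Fbxl21 and Btrc had no peak of their name.

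Of these 13 regions, none was called for the ratio, the IP reads or the input reads (edgeR adjusted p of at least 0.637). DESeq2 also called 0. An edgeR unadjusted p under 0.05 occurred in 0 of them for any of the 3 measures, against 2.8%, 10.4% and 8.24% of all regions. The 1.8-fold rule was passed by 0 of them in either direction. As the lists begin at a fold of 2, most of them could not have been listed with such a drop. Only the Fbxw11 region chr11:32707981-32708470, with normal folds of 3.71 and 4.17, could have shown it in both replicates. The main Tef region, chr15:81823261-81826870, held 1849 and 1445 IP reads in the normal and 4426 and 2567 in the starved libraries, over 535, 523, 754 and 639 input reads. Its log2 difference was 0.40 ± 0.27 for IP reads per base (edgeR adjusted p = 0.71) and -0.13 ± 0.19 for the ratio. The main Nfil3 region, chr13:52967161-52969250, held 1731 and 2043 IP reads in the normal and 4000 and 3017 in the starved libraries, with a log2 difference of 0.21 ± 0.21 for IP reads per base (edgeR adjusted p = 0.829). For the 7 Fbxw11 regions the log2 differences of IP reads per base lay between -0.16 and 0.27. The median log2 change of IP reads per base was -0.03 over the 13 regions, 0.35 over the 5 Per1 regions and 0.01 over all 6531 regions. For the ratio the medians were 0.05, -0.10 and -0.02.

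**Figure D5:**
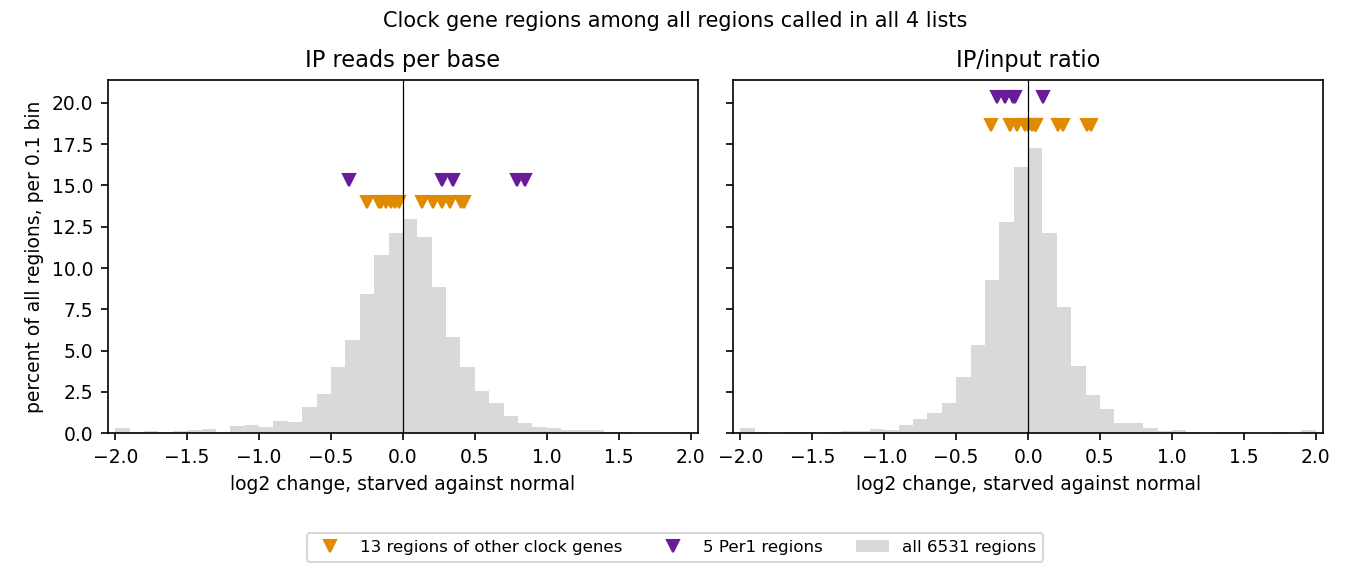
Log2 change from normal to starved of IP reads per base (left) and of the IP/input ratio (right): grey bars give the percent of all 6531 regions per 0.1 bin (values beyond 2 are in the end bins), and triangles mark the 5 Per1 regions and 13 regions of other clock genes. Per1 triangles reach 0.85 for IP, and for the ratio all triangles lie between -0.26 and 0.44.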

How the data were processed

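YTHDF3 RIP-seq of MEFs gave 4 IP libraries, each with an input. The authors used Trimmomatic for trimming, Tophat (version 2.0.13 in the submitters' processing notes) for alignment to mm10, diffReps for peaks of every IP over its input, and HOMER for names, taken from the promoter nearest to a peak. They deposited counts of reads per peak for normal replicate 2, and for the other lists a signal (reads multiplied by 1 factor per library), with the log2 of the IP/input ratio and p-values, including one for the best window of each peak. Dividing the deposited signal by its factor, found from the spacing of values, gave whole reads (within 0.1 read, for 100% of values up to 1000). The lists do not name the input, so the input of the same condition and replicate number is assumed.

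Peaks were filtered and merged as stated in the report. Region folds were summed scaled IP reads over summed scaled input reads (at least 3 reads). The tests used the quasi-likelihood method of edgeR 4.0.16 (R 4.3.3) with TMM: a term per culture plus IP and IP by starved for the ratio, and a covered-length offset for IP and input reads. Reads per kb were divided by the TMM scale of the library. The fits and the merging were tested on simulated data. DESeq2 1.42.0 was an alternative. Others covered thresholds, overlap, folds, filters, a replicate block, membership by exon (GENCODE M21), motif windows and leaving out each replicate. Exact intervals of shares and read ratios cover counting error only. Those of log2 changes are 1.96 SE of edgeR, which includes the spread between libraries. The latter intervals are approximate and can be too narrow. Other steps ran in Python 3.11.15 (scipy 1.17.1, pysam 0.24.0, numpy 2.4.6, pandas 2.3.3). All 10 members are named, and of 16 other clock genes those with a region in all 4 lists, with a gene of another name only where such a region lies in its exons. Genes that receive counts and no values are named besides. Some genes of that list are not reported here. The members and lists were chosen with earlier results of these data known.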

Additional observations from a re-analysis of the deposited data

How the results depend on the processing

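The count of 5 clock gene regions in all 4 lists was 0 with a fold of at least 4 (8 regions remained, none in all 4 lists) and 1 with a 50% reciprocal overlap, which splits regions. No regions changed by the 1.8-fold rule or in the ratio under any alternative run, and none in input reads. With a fold of at least 4 no clock gene region could be fitted. The number called for IP reads per base was 2 with the replicate block, and 0 to 1 when 1 replicate was left out. GGAC in 5 windows fell from 100% to 40% with 100 bp. Among single regions, the log2 IP change for exons 2 to 17 was -0.105 with no length offset. Leaving out 1 replicate at a time, the ratio change of exon 18 lay between -0.359 and 0.176, the highest without normal replicate 1, and that of exons 20 to 22 between 0.0359 and 0.713, the highest without starved replicate 2. For IP, exon 19 lay between 0.435 and 1.312 and exon 23 between 0.429 and 1.317. For exons 20 to 22 the IP change lay between -1.225 and 0.0657 and the input change between -1.927 and 0.00539, the highest without starved replicate 1 and the lowest without starved replicate 2. The replicate numbers do not say what they share, and libraries of the same number deviated together (r = 0.45 for IP reads per base, 0.31 for input and 0.28 for the fold, across regions, which are not independent). With the block, calls over all regions went from 12 higher and 61 lower to 321 and 329 for IP, and from 14 and 50 to 108 and 150 for input. Per1 folds lie near the threshold of 2, and a region under it is not listed, so that a fold under 2 could not be seen.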
